A study of Homo sapiens with 8 samples.

Results

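The 2′-5′-oligoadenylate synthetase (OAS) family has 4 human members, OAS1, OAS2, OAS3 and OASL, and all 4 were found by symbol in a table of 38173 genes. The rule takes them by symbol and uses no measured value, although the family was picked for study with earlier results of these data known. The study used MH7A cells, an immortalised line of synovial fibroblast-like cells from a patient with rheumatoid arthritis, and asked how Tubuloside B (Tub B), a phenylethanoid glycoside from Cistanche plants, acts on cells exposed to the inflammatory cytokine TNF. Poly(A) RNA of 8 libraries was sequenced, 2 in each of 4 groups: mock cells, cells given TNF for 24 h, cells given TNF and 60 µM Tub B together for 24 h, and cells given 60 µM Tub B alone for 24 h. TNF was used at 20 ng, per millilitre in the design text but per microlitre in the sample labels. The mock libraries carry the treatment label DMSO, while the design text gives mock cells no treatment. MH7A is 1 cell line, and no label states that the 2 libraries of any group were grown apart. The p-values therefore rest on differences between sequenced libraries that may be technical.

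OAS enzymes bind double-stranded RNA and then join ATP into short 2′-5′-linked oligoadenylates (2-5A). 2-5A is a second messenger of antiviral defence, and phosphodiesterases remove it again. OAS1, OAS2 and OAS3 carry 1 or more copies of the OAS unit and differ in the RNA they sense, whereas OASL lacks synthetase activity, carries ubiquitin-like domains at its end and binds the RNA sensor RIG-I. All are classic interferon-stimulated genes, transcribed from response elements bound by interferon regulatory factors.

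OAS1, OAS3 and OAS2 lie side by side on chromosome 12, and OASL lies farther along the same chromosome. RefSeq promoters (GRCh38.p14) were at hand for 2 of the 4 members, OAS1 and OAS3. The 250 bases before each of these 2 starts are shown, 5′ to 3′ on the + strand. Capitals mark a GAAA pair with 1 or 2 bases between. The pair with 2 bases between was the planned core of the interferon-stimulated response element. The pair with 1 base between was added after the values were seen.
OAS1, chr12:112906712-112906961: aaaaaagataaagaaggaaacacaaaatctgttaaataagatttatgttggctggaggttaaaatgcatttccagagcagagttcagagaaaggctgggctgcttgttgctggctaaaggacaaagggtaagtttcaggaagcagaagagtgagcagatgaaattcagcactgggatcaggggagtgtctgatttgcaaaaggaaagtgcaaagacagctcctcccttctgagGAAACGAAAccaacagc
OAS3, chr12:112938224-112938473: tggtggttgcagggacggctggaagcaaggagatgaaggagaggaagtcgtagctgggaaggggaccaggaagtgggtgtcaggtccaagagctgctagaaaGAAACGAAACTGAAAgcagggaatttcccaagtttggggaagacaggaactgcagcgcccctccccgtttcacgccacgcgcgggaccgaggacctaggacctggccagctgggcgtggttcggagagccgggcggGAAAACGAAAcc
In OAS1 the planned pair with 2 bases between had no match, and the pair with 1 base between (GAAANGAAA) stood 17 to 9 bases before the start. In OAS3 the pair with 2 bases between (GAAANNGAAA) occurred at 12 to 3 and at 143 to 134 bases before the start, and the second of these overlapped a pair with 1 base between. Searched on both strands over 35116 promoters, the pair with 2 bases between was held by 3.02% of windows of this 250-base length and the pair with 1 base between by 2.69%. A STAT dimer motif (TTCNNNGAA, 6.57% of windows) matched in OAS1 168 to 160 bases before the start, and an NF-kB motif (GGGNNNNNCC, 54.4% of windows) matched in OAS3 130 to 121 bases before it, overlapping its own match on the other strand. These matches describe letters in the reference and are not measured binding sites.

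Deposited counts per library ranged from 14073186 to 31937334, and replicate 1 was the deeper library in every group. Synovial fibroblast markers were present, with 11 of 12 tested and only PRG4 near 0 (36 counts in all libraries), and their summed level was 24600 to 29000 CPM (counts scaled to 1000000 per library) in mock, 24900 to 25900 with TNF, 25500 to 27100 with Tub B and 19500 to 19800 with both. Markers of leukocytes, endothelium and epithelium summed to 3.64 to 5.12 CPM in every library. CD3E and MS4A1 had 2 counts each over all libraries. All CPM below were scaled by the trimmed mean of M-values (TMM), and differences were tested with edgeR's quasi-likelihood model over 16647 genes, with a gene called where its p, adjusted by the Benjamini-Hochberg method, was below 0.05. In bulk RNA, fewer cells carrying a transcript and less of it per cell cannot be told apart.

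TNF raised all 4 OAS genes from low levels, by 15.3- to 45.6-fold in mean CPM. OAS1, the smallest synthetase, read 2.1 and 4.85 CPM in the mock libraries and 139 and 178 CPM with TNF. Its mean rose from 3.47 ± 1.95 to 158 ± 28 CPM (SD, n = 2). The model gave a log2 fold change of 5.62 ± 0.232 (SE), with an edgeR adjusted p of 1.7e-12. OAS1 had the largest change of the family and ranked 20 among all tested genes ordered by log2 fold change.

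OAS2, which carries a pair of OAS units, read 10.5 and 18.1 CPM in mock and 288 and 378 CPM with TNF. The log2 fold change was 4.60 ± 0.196 (edgeR adjusted p = 2.68e-12). OAS3, the longest member and the synthetase that prefers long double-stranded RNA, read 36.2 and 58.8 CPM in mock and 745 and 919 CPM with TNF. It was the member with the most reads in every library. Its log2 fold change was 4.16 ± 0.165 (edgeR adjusted p = 9.01e-13).

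OASL, the member without synthetase activity, read 3.2 and 3.95 CPM in mock and 49.8 and 59.5 CPM with TNF. Its log2 fold change was 3.95 ± 0.179 (edgeR adjusted p = 5.91e-12), the smallest of the 4. In none of the members did the mock and TNF libraries overlap. Over all tested genes, 17.2% were called higher with TNF and 31.9% had TNF libraries that lay wholly above the mock libraries. Together the 4 genes held 52 and 85.7 CPM in mock and 1220 and 1530 CPM with TNF, which was 0.116% and 0.144% of all counts in the TNF libraries.

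**Figure D1:**
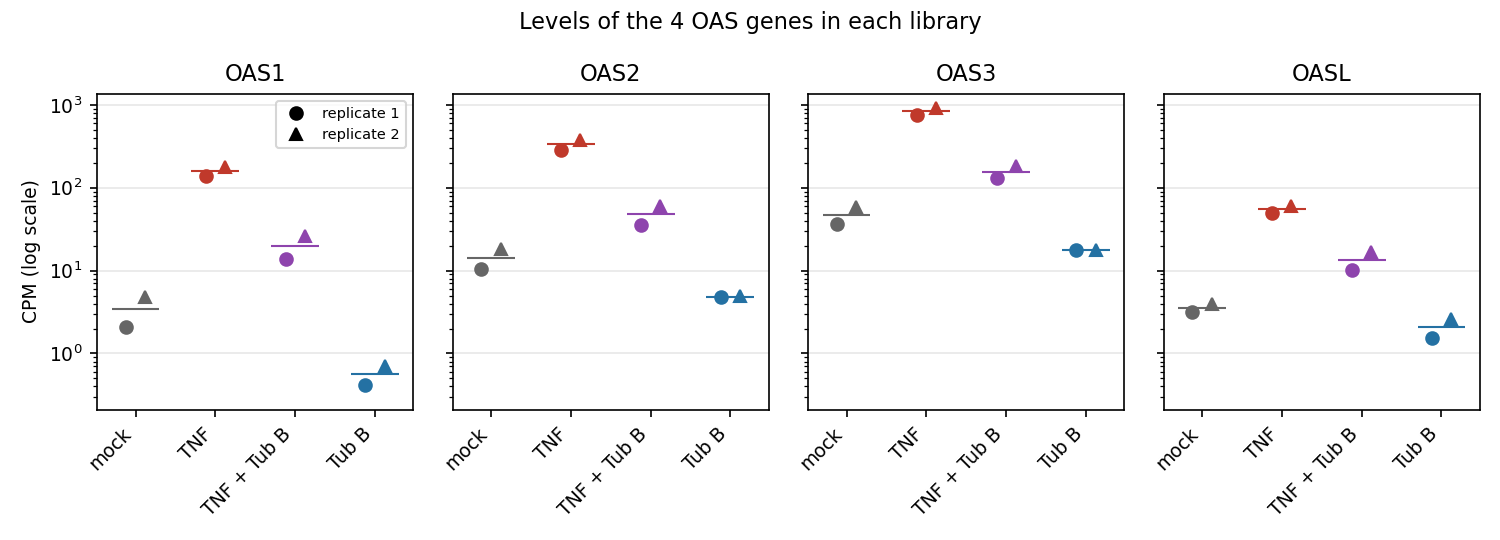
CPM (log axis) of OAS1, OAS2, OAS3 and OASL in each of the 8 libraries, with replicate 1 as circles, replicate 2 as triangles and a line at the group mean. In each gene the order from highest to lowest was TNF, TNF + Tub B, mock and Tub B, with no overlap between neighbouring groups, and OAS1 spanned the widest range, from 0.42 to 178 CPM.

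With Tub B given alongside TNF, all 4 genes were lower than with TNF alone, and all stayed above mock. OAS1 read 13.7 and 25.8 CPM with both agents, a mean of 19.7 ± 8.54 CPM (SD, n = 2), which was 12.5% of its TNF level. The log2 fold change against TNF was -3.03 ± 0.184 (edgeR adjusted p = 1.65e-09). OAS1 ranked 10 among all tested genes, counted from the most negative log2 fold change.

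OAS2 read 35.4 and 60.2 CPM with both agents, 14.4% of its TNF level, and fell by 2.81 ± 0.172 on the log2 scale (edgeR adjusted p = 1.78e-09). OAS3 read 130 and 181 CPM, 18.7% of its TNF level, and fell by 2.42 ± 0.149 on the log2 scale (edgeR adjusted p = 1.82e-09). OASL read 10.1 and 16.9 CPM, 24.7% of its TNF level, and fell by 2.03 ± 0.152 on the log2 scale (edgeR adjusted p = 1.71e-08). The fitted falls had the same order as the fitted rises with TNF, OAS1 first and OASL last. The 2 comparisons share the TNF libraries, so that order is not independent evidence. No library with both agents reached the lower TNF library in any member. Among all tested genes, 13.1% were called lower and 31.5% lay wholly below their TNF values.

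Against mock, the cells given both agents still held more OAS RNA. The log2 fold change was 2.60 ± 0.304 for OAS1, 1.79 ± 0.225 for OAS2, 1.74 ± 0.164 for OAS3 and 1.92 ± 0.225 for OASL, with edgeR adjusted p-values from 2.08e-07 to 7.15e-06. All 4 were called higher, as were 15% of all tested genes (32.2% had libraries wholly above mock). The synovial marker sum was lowest in this group, and its part in the result was not tested.

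Tub B alone was followed by lower levels of the synthetases. OAS1 read 0.42 and 0.709 CPM, from 9 and 14 counts, a mean that was 16.3% of mock. Its log2 fold change against mock was -2.50 ± 0.639 (edgeR adjusted p = 0.0148). With so few counts, OAS1 had the widest error of the family here, a 95% interval of -3.85 to -1.15, and the call did not hold when mock replicate 2 (adjusted p = 0.0601), Tub B replicate 1 (0.163) or Tub B replicate 2 (0.111) was left out.

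OAS2 read 4.76 and 4.92 CPM with Tub B alone, 33.8% of mock, and fell by 1.498 ± 0.326 on the log2 scale (edgeR adjusted p = 0.00518). That call was lost without Tub B replicate 1 (adjusted p = 0.0719) or replicate 2 (0.078). OAS3 read 17.9 and 17.5 CPM, 37.2% of mock, and fell by 1.39 ± 0.2 on the log2 scale (edgeR adjusted p = 0.000151). Leaving out any single library kept the call on OAS3, with adjusted p at most 0.0114. OASL read 1.54 and 2.58 CPM, 57.7% of mock, and did not pass (log2 fold change -0.77 ± 0.318, 95% interval -1.45 to -0.10, edgeR adjusted p = 0.128). So 3 of 4 members were called lower, against 7.91% of all tested genes, and in all 4 both Tub B libraries were below both mock libraries, as in 26.1% of all genes. The count of 3 became 1 when either Tub B library was left out.

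Within cells that had Tub B, adding TNF again raised every member. The fitted folds were 34.3 for OAS1, 9.76 for OAS2, 8.76 for OAS3 and 6.48 for OASL, with SEs of 0.445, 0.276, 0.187 and 0.257 on the log2 scale and edgeR adjusted p-values from 7.16e-10 to 3.21e-07. All 4 were called higher, beside 14.3% of all genes, and 30.7% of all genes had libraries wholly above Tub B alone. For OAS1 the log2 response was 5.10, beside 5.62 without Tub B, from a lower starting level.

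The interaction term asks whether the log2 response to TNF differed with Tub B. It was -1.03 ± 0.252 for OAS3 (edgeR adjusted p = 0.0256), so the TNF response of OAS3 was 2.04-fold smaller with Tub B. OAS2 (-1.31 ± 0.4, adjusted p = 0.0818) and OASL (-1.26 ± 0.372, adjusted p = 0.07) did not pass in the main edgeR fit. OAS1 did not pass either (-0.53 ± 0.834, adjusted p = 0.826), and its 95% interval of -2.28 to 1.24 covers both no difference and differences as large as those of the other members. So 1 of 4 members was called lower in the interaction, beside 3.2% of all tested genes. This count was unstable, at 0 under DESeq2 and 3 without the filter or with a replicate term. OAS2 and OASL were both called, making 3, in the fits that left out mock replicate 2 (adjusted p of 0.00255 for OAS2 and 0.0226 for OASL), TNF replicate 1 (0.0298 and 0.0449) or TNF + Tub B replicate 2 (0.00691 and 0.00442). The OAS3 call was lost with DESeq2 (adjusted p = 0.326) and without any one of mock replicate 1 (0.0553), TNF replicate 2 (0.0992), TNF + Tub B replicate 1 (0.119), Tub B replicate 1 (0.184) or Tub B replicate 2 (0.137).

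**Figure D2:**
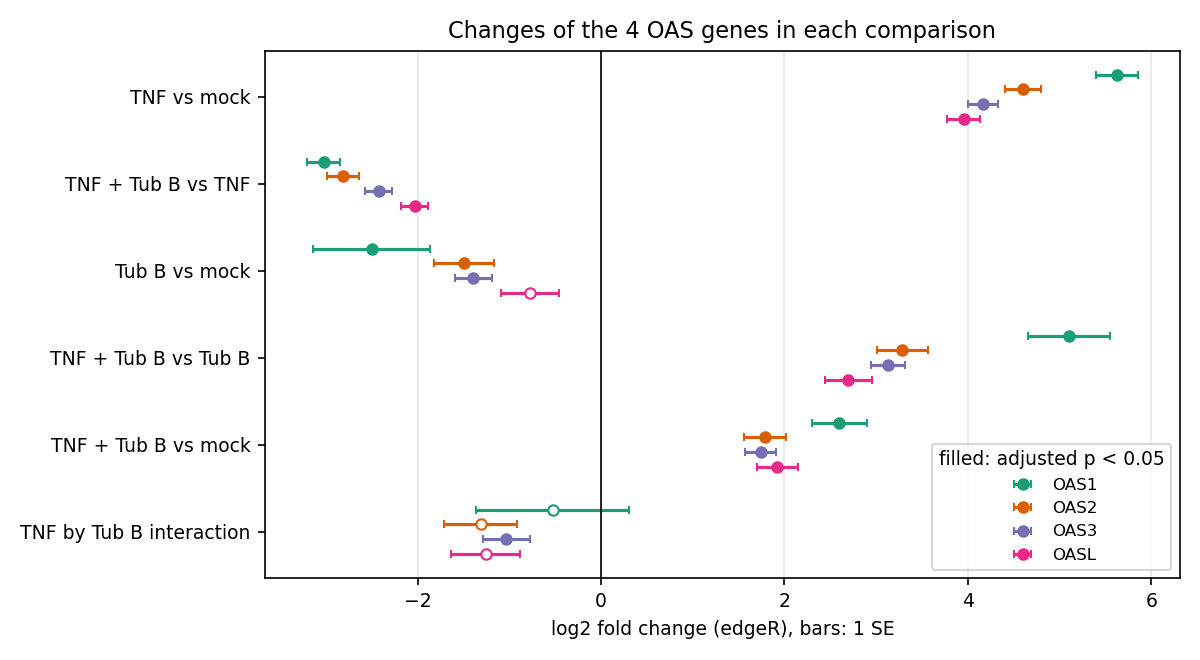
Fitted log2 fold changes of the 4 OAS genes in 5 comparisons and the interaction, with bars of 1 SE and filled points where the edgeR adjusted p was below 0.05. OAS1 lies farthest from 0 in the first 5 comparisons, and OASL with Tub B alone and OAS1, OAS2 and OASL in the interaction are open points.

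Levels of different members can be compared only per length, here per kb of the longest GENCODE 29 transcript. With TNF the mean was 124 CPM per kb for OAS3, 70.3 for OAS2, 65.6 for OAS1 and 16.7 for OASL. OAS2 was slightly above OAS1 in both TNF libraries, at 60.8 and 57.4 CPM per kb in replicate 1 and 79.8 and 73.8 in replicate 2. As a share of the family, OAS1 made up 10.9% ± 2.48 in mock, 23.7% ± 0.283 with TNF, 17.6% ± 2.26 with both and 5.12% ± 1.54 with Tub B alone (SD, n = 2). OAS3 was the largest share throughout, at 56.2% ± 1.13, 44.8% ± 0.778, 51.4% ± 4.03 and 58.4% ± 4.67 in the same order. OAS2 stayed between 22% and 25.4% in group mean, and OASL between 6.08% and 13.8%. In these 8 libraries the OAS1 share was highest in the TNF group, and OAS3 had the largest share in each.

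The OAS1 share was also examined as the within-library log2 ratio of one member to another, which needs no library scaling. The log2 ratio of OAS1 to OASL was 1.95 higher in the 4 libraries with TNF than in the 4 without, that of OAS1 to OAS3 was 1.59 higher and that of OAS1 to OAS2 was 1.33 higher. In each the libraries with and without TNF did not overlap. The two-sided exact permutation p was 0.0286, the smallest that 4 against 4 can give. The permutation treated the 8 libraries as exchangeable and set aside Tub B and the 2 libraries shared by each group. These ratio tests were added after the values were seen. Adjusted over 12 tests, the 6 ratios compared once by TNF and once by Tub B, these p-values were 0.114. A ratio can reach 0.0286 by TNF or by Tub B but not by both. No adjusted p below 0.05 was therefore possible, and these tests cannot decide whether the ratios differed. By Tub B the 6 ratios differed by -1.28 (OAS1 to OASL) to -0.26 (OAS2 to OAS3) on the log2 scale. Their exact permutation p ran from 0.0571 to 0.371 and their adjusted p from 0.171 to 0.371. OAS2 and OAS3 stayed closest to each other: their log2 ratio was 0.27 higher with TNF (exact permutation p = 0.114, adjusted p = 0.214).

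**Figure D3:**
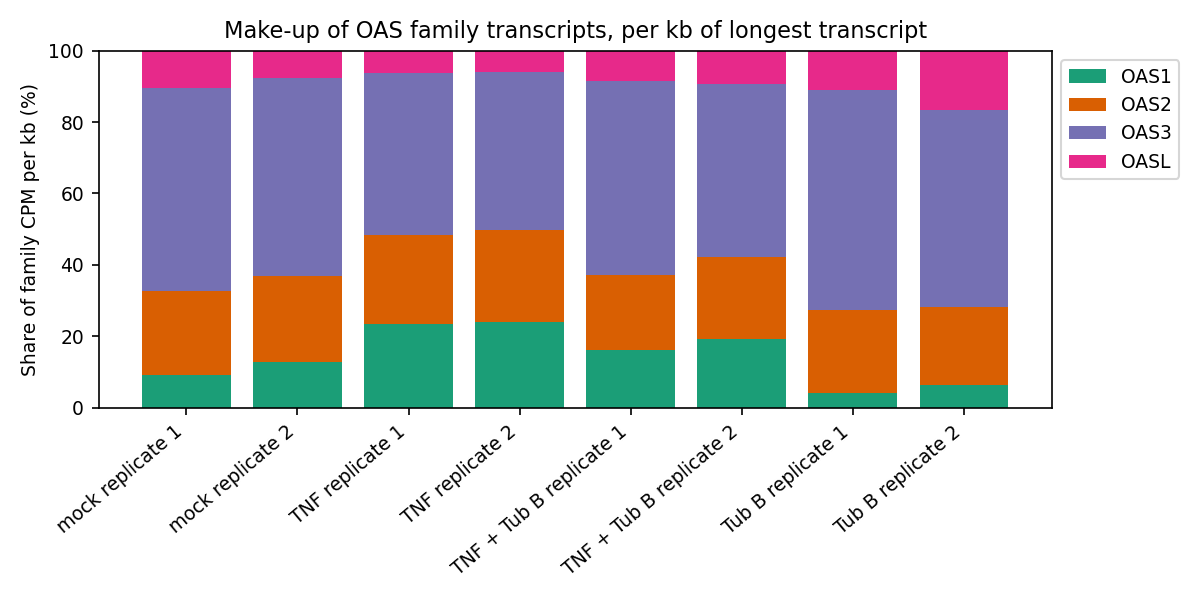
Share (%) of each OAS gene in the family's summed CPM per kb of longest transcript, 1 bar per library. The OAS1 share is highest in the 2 TNF libraries (group mean 23.7%) and lowest with Tub B alone (group mean 5.12%).

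The 2 libraries of a group differed in a shared direction. OAS1, OAS2 and OASL were higher in replicate 2 than in replicate 1 in all 4 groups, as were 7.93% of all tested genes. OAS3 was too, except with Tub B alone, where replicate 2 was 0.03 lower on the log2 scale. For OAS1 the log2 difference between replicates was 1.17 in mock, 0.36 with TNF, 0.91 with both and 0.64 with Tub B. Of 27 other antiviral interferon-stimulated genes listed for comparison, 19 also had replicate 2 higher in every group. Replicate 1 was the deeper library throughout, and the part of depth or of the culture in this was not tested.

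Beside the synthetases, the 2-5A route was followed through ABCE1, an ATP-binding protein of ribosome recycling, and through PDE12 and AKAP7, whose products are phosphodiesterases or relatives that can degrade 2-5A. ABCE1 (78.4 CPM in mock, 74.6 with TNF) and PDE12 (49.2 and 48.8) did not pass in any of the 6 tests in edgeR with TMM. ABCE1 was called lower with TNF under library totals (-0.145, edgeR adjusted p = 0.0291) and upper-quartile factors (-0.136, 0.0323). With both agents against TNF, library totals called ABCE1 (0.209, 0.00475) and PDE12 (0.22, 0.0189) higher. AKAP7 was higher with TNF (0.77 ± 0.272, edgeR adjusted p = 0.0402), but lost the call under library totals (0.0546), upper-quartile factors (0.0557), DESeq2 (0.147) and without mock replicate 1 (0.245), TNF replicate 1 (0.0698) or TNF replicate 2 (0.179). The median log2 fold change of the 4 OAS genes with TNF was 4.38, beside 0.00 for all tested genes.

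Of the genes related to OAS by their nucleotidyltransferase fold, 2 of 8 were called higher with TNF and 0 lower in edgeR with TMM. The share called higher over all tested genes was 17.2%. Of the 8 tested, MB21D1 (cGAS, the DNA sensor) was called higher with TNF (1.23 ± 0.115, edgeR adjusted p = 1.55e-07), as was PAPOLA, a poly(A) polymerase (0.20 ± 0.048, adjusted p = 0.00403), and 6 did not pass. These counts moved with the scaling: with library totals 1 was called higher and 4 lower, with upper-quartile factors 3 were called lower, and without mock replicate 2 there was 1 lower. MB21D1 read 12.3 CPM with TNF and 10.9 CPM with both agents, and the difference between those groups did not pass (-0.17 ± 0.108, adjusted p = 0.313).

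Other genes that bind or sense double-stranded RNA also changed. Of 13 tested, 9 were called higher with TNF and 7 were called lower when Tub B was added to TNF. Among all tested genes these shares were 17.2% and 13.1%, and 7.91% were called lower with Tub B alone. IFIH1 (MDA5) rose by 4.76 ± 0.199 on the log2 scale with TNF and DDX58 (RIG-I, the partner of OASL) by 4.14 ± 0.145. TLR3 rose by 3.01 ± 0.222 and DHX58 (LGP2) by 2.43 ± 0.111, each with an edgeR adjusted p of at most 5.76e-09. With Tub B alone 2 of 13 were called lower, and this count was 1 without mock replicate 2 or Tub B replicate 1 and 0 without Tub B replicate 2, 1 under limma-voom, 4 with only the groups compared in the fit and 5 without the filter.

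Genes of ubiquitin-like conjugation, to which the OASL end is related, gave 8 of 9 higher with TNF and 6 of 9 lower with both agents against TNF. The shares over all tested genes in the same comparisons were 17.2% and 13.1%. USP18, the ISG15 protease and a brake on the interferon receptor that is also in the interferon list below, rose by 5.10 ± 0.218 on the log2 scale. ISG15, itself a ubiquitin-like protein, rose by 3.10 ± 0.138, from 59.8 to 505 CPM. The HERC-family ligase genes HERC6 and HERC5 rose by 3.85 ± 0.136 and 3.74 ± 0.19 (edgeR adjusted p at most 3.06e-11 for each gene named here).

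The interferon route upstream of OAS was measured through 18 tested genes of 24 listed. For comparison, 17.2% of all tested genes were called higher with TNF and 13.1% lower with Tub B added to it. With Tub B alone 7.91% were called lower. With TNF 13 were called higher and 1, SOCS3, lower (a call lost without mock replicate 1), and with Tub B added to TNF 8 were called lower and 0 higher in edgeR. IRF7 rose by 3.21 ± 0.119 and IRF1 by 2.84 ± 0.091 on the log2 scale with TNF. IRF9, the DNA-binding part of the complex that type I interferon activates, rose by 1.01 ± 0.153 with TNF, and with both agents against TNF it did not pass (-0.33 ± 0.152, adjusted p = 0.142). With Tub B alone, IRF7 (-0.80 ± 0.182, adjusted p = 0.007), IRF9 (-0.71 ± 0.196, adjusted p = 0.0221), SOCS1 and SOCS3 were the 4 called lower, and this count fell to 1 without Tub B replicate 1 and to 2 without Tub B replicate 2. IFNB1, the type I interferon gene, was below the filter, with 0 and 0 counts in mock, 14 and 5 with TNF, 3 and 2 with both, and 1 and 0 with Tub B. It was not tested.

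Antiviral interferon-stimulated genes outside the family were higher with TNF and lower again with Tub B added, as the OAS genes were. Among all tested genes, 17.2% were called higher with TNF and 13.1% lower with Tub B added to it. Called lower with Tub B alone were 7.91%, and in the interaction 3.2%. All 27 tested were called higher with TNF (median log2 fold change 3.59) and all 27 lower when Tub B was added to TNF (median -2.40) in edgeR, with 26 or 27 over the alternatives in either comparison. RSAD2 (viperin) rose most, by 6.35 ± 0.237 on the log2 scale, followed by IFI44L (5.79 ± 0.258), CMPK2 (5.64 ± 0.196) and MX1 (5.25 ± 0.242). The OAS medians were 4.38 and -2.62 in the same comparisons. With Tub B alone 13 of 27 were called lower and 0 higher (median -0.64, beside -1.45 for the OAS genes), but the count was 6 under DESeq2, 8 under limma-voom, 21 without the filter, 6 without mock replicate 2 and 4 without either Tub B library. In the interaction 19 of 27 were called lower, and 13 to 23 when single libraries were left out.

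**Figure D4:**
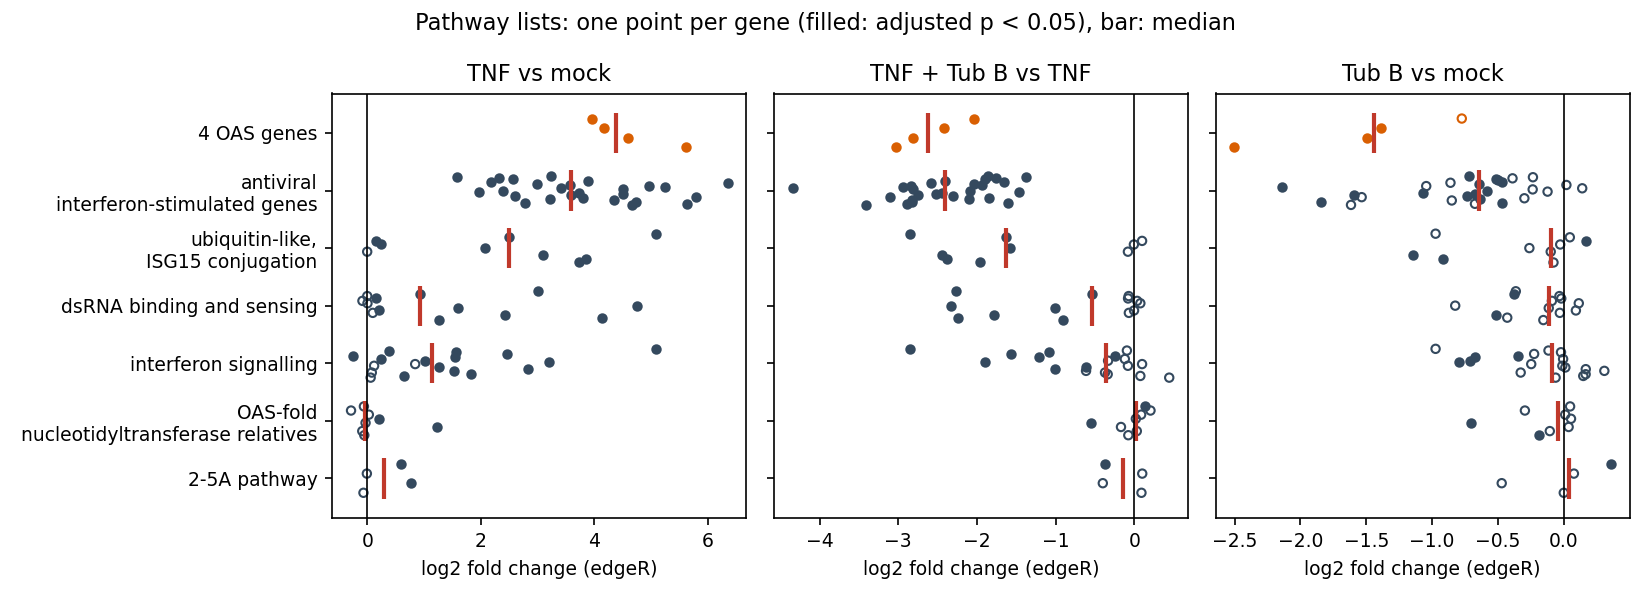
Log2 fold changes of each tested gene in the OAS family and the 6 lists in 3 comparisons, filled where the edgeR adjusted p was below 0.05, with a bar at the list median. The OAS genes and the antiviral genes lie right of 0 with TNF and left of 0 when Tub B is added, while the median of the OAS-fold relatives with TNF is -0.045.

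The genes most alike to each member were found by the root mean square (RMS) difference of log2 CPM over the 8 libraries, each gene centred on its own mean, among 9946 candidates. Nearest to OAS1 were MX1 (0.331), IFI44L (0.357) and RSAD2 (0.589), followed by EPSTI1 (0.646) and the pseudogene GBP1P1 (0.699). GBP1P1 averaged only 0.113 CPM in mock and 0.0253 CPM with Tub B alone, so its likeness in those groups rests on very few counts. The median candidate was 2.97 from OAS1. Nearest to OAS2 were EPSTI1 (0.155), MX2 (0.172), USP18 (0.259), BST2 (0.284) and IFIH1 (0.348). These values are descriptions with no test, and the 8 libraries share their groups.

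OAS3 was nearest to MX2 (0.29), IFIT2 (0.291), HERC6 (0.316), IFIH1 (0.321) and RTP4 (0.324). OASL was nearest to DDX58 (0.205), IFI44 (0.227), HERC6 (0.244), IFIT2 (0.258) and IFIT3 (0.286). Within the family the closest pair was OAS2 and OAS3, at 0.213, and the most distant was OAS1 and OASL, at 1.2. OAS1 was therefore nearer to MX1 than to any other OAS gene, the nearest of which was OAS2 at 0.756.

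**Figure D5:**
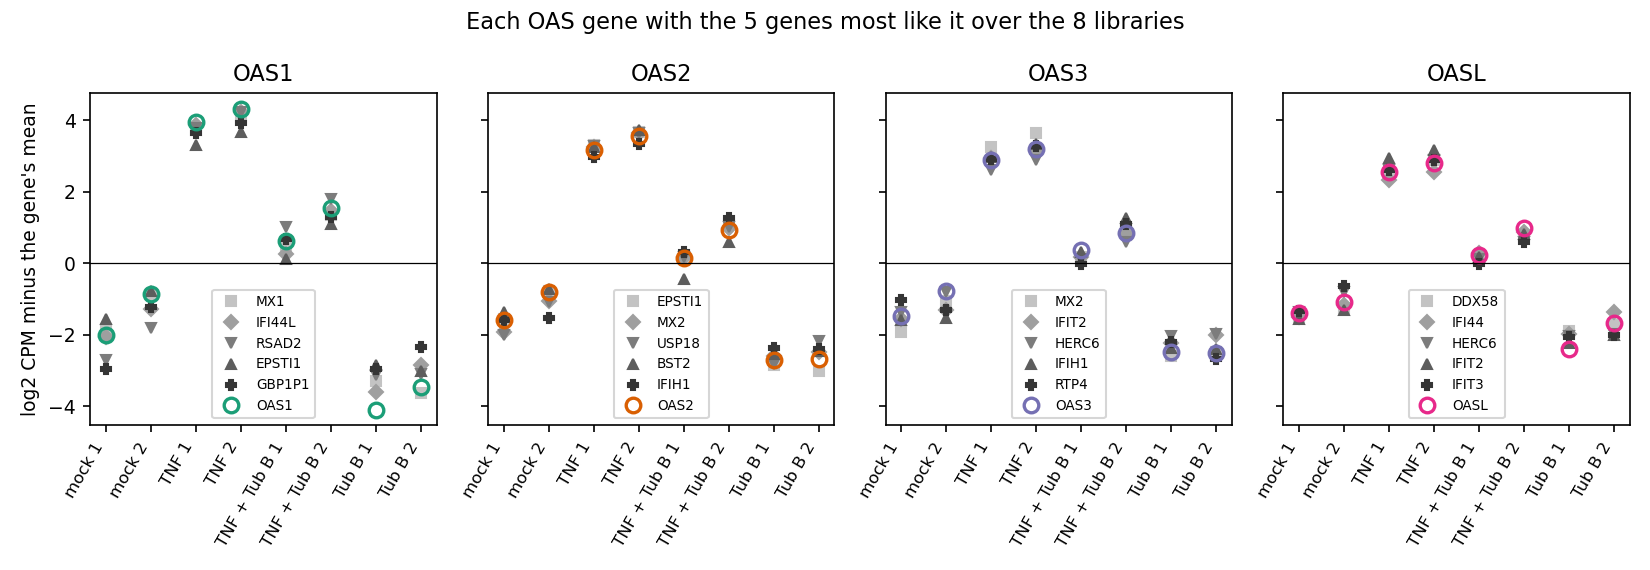
Log2 CPM minus each gene's own mean over the 8 libraries for each OAS gene (open circles) and its 5 most alike genes (grey symbols). The symbols lie close together with TNF and with both agents, and OAS1 lies below its 5 nearest genes in replicate 1 of Tub B alone.

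Genes next to the family on chromosome 12 had fitted log2 differences of at most 0.33 in size with TNF, among those tested. Of the 3 protein-coding genes on each side of the OAS1-OAS3-OAS2 cluster, RPL6 and PTPN11 were tested and RPH3A, DTX1 and RASAL1 had 13, 25 and 13 counts in all libraries. CFAP73 had no entry under that name. Around OASL, P2RX4 had the largest change with TNF among the tested neighbours, 0.33 ± 0.096 on the log2 scale (edgeR adjusted p = 0.0139), against 3.95 for OASL. RPL6 changed by -0.21 ± 0.043 with TNF (adjusted p = 0.000966), against 5.62 for OAS1.

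The annotated transcripts of the members share little sequence with other genes. Of all 50-base words in the GENCODE 29 transcripts, 1.07% in OAS1 and 0.615% in OAS3 occurred in transcripts of another gene, 0 in OAS2 and OASL, and 0 were shared among the members. The library kit does not keep strand, and an antisense gene overlaps OAS1, OAS3 and OAS2 in that annotation. Where its transcripts share sequence with those of a member, reads from either strand cannot be told apart. The word search covered both strands, and OAS2 transcripts shared 0 words with any other gene.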

How the data were processed

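Poly(A) RNA of 8 MH7A libraries in 4 groups of 2 was analysed from the gene counts deposited by the authors, whole numbers per symbol that are not normalized, with 0 columns left unassigned. Groups came from the sample titles. Per the labels' protocols, the kit keeps no strand. Per the submitters' processing notes, STAR 2.7.0 and featureCounts were used, and the builds mm10 and hg19 are named with no role. No source used here says which build these counts rest on. Lengths, neighbours and transcript words came from GENCODE 29 (GRCh38) and promoters from RefSeq (GRCh38.p14), matched by symbol.

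edgeR 4.0.16 in R 4.3.3 was run with filterByExpr, TMM factors and 1 coefficient per group over all 8 libraries (4 residual and 13.1 prior degrees of freedom), and was tested on simulated data. The SE is the log2 fold change divided by the square root of F. DESeq2 1.42.0, limma 3.58.1, other scalings and filters, a replicate term and leave-one-out fits were alternatives. The members and lists were chosen with earlier results of these data known. Named were all members, 2-5A genes, interferon signalling genes passing in any comparison, up to 4 genes with the largest TNF change in other lists, the 5 most alike genes per member (mean log2 CPM of at least 3 with TNF, prior count 2) and neighbours. The GAAANGAAA motif and the ratio tests were added after the values were seen. Results of some listed genes are not reported here. Replicates of a group differed by more than counting noise (chi-square per degree of freedom 2.22 to 5.22), so none was merged. Precision is limited by 2 libraries per group, and 1 count was worth 0.0331 to 0.0693 CPM.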

Additional observations from a re-analysis of the deposited data

Results flagged for a closer look

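The TNF response of OAS3 differed with and without Tub B in a test of that difference: the log2 response with Tub B minus that without was -1.03 (SE 0.252, edgeR adjusted p = 0.0256). OAS3 rose from 47.5 to 832 CPM without Tub B and from 17.7 to 156 CPM with it, in group means. In both settings each TNF library lay above each library without TNF. The call was lost under DESeq2 (adjusted p = 0.326), and leave-one-out values ran from -1.39 to -0.69. OAS2 (-1.31) and OASL (-1.26) had estimates larger in size that did not pass in the main edgeR fit. The difference was not particular to OAS3, as 19 of 27 antiviral genes were also called lower in the interaction.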

How the results depend on the processing

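Of 348 refitted values of the 4 members over the alternatives, 324 kept their side of the threshold, 12 lost the call and 12 gained it. Among called values 0 reversed, but direction was not compared where neither fit made a call. The uncalled OAS1 interaction, -0.525 in the main fit, reached 0.08 in a leave-one-out fit. The changes were all in Tub B against mock and in the interaction. In the other 4 comparisons 56 of 56 values each kept the call. Leaving out 1 library gave log2 fold changes with TNF of 5.02 to 6.23 for OAS1, 4.20 to 4.98 for OAS2, 3.82 to 4.52 for OAS3 and 3.78 to 4.09 for OASL.

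For Tub B against mock, OAS1 lost its call in limma-voom (-2.37, adjusted p = 0.0924), and OASL gained one without a filter (-0.79, adjusted p = 0.00252). Leave-one-out values were -3.10 to -1.90 for OAS1, -1.90 to -1.12 for OAS2, -1.73 to -1.03 for OAS3 and -1.18 to -0.44 for OASL, and 1 to 3 members were called lower. In the interaction OAS3 lost its call in DESeq2 (-0.99), OAS2 gained one without a filter (-1.31) and OASL did (-1.26), so that 0 and 3 members were called lower, against 1. The leave-one-out ranges were -1.13 to 0.08 for OAS1, -1.74 to -0.91 for OAS2, -1.39 to -0.69 for OAS3 and -1.67 to -0.86 for OASL, with 0 to 3 members called. OAS2 and OASL were called without mock replicate 2, TNF replicate 1 or TNF + Tub B replicate 2. The fit without a filter estimated infinite prior degrees of freedom, which gives every gene the spread of the trend, so its p-values ignore gene-wise spread. A group left with 1 library was assumed to vary like the others. The cause of the other shifts was not tested.

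Deviations of same-numbered libraries correlated by -0.05 to 0.05 across genes, which cannot exclude pairing in OAS genes. With the replicate block, OASL was called in Tub B against mock (-0.81, adjusted p = 0.0134), and OAS2 (-1.30, adjusted p = 0.000146) and OASL (-1.24, adjusted p = 0.00382) were called in the interaction, where 3 members then passed. The count of antiviral genes called lower with Tub B alone was 20 with the block, against 13, and that of genes that bind or sense double-stranded RNA was 5, against 2. Of 3560 values of the other named genes, 3397 kept their side of the threshold, 78 lost the call, 85 gained it and 0 called values reversed.

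Over all genes, DESeq2 called 1345 against 2120 for Tub B against mock and 421 against 705 in the interaction. Leaving out 1 library gave 715 to 2130 and 306 to 1328 there, and 2024 to 2388 against 3367 for both agents against TNF. Library totals shifted the median gene by 0.12 in that last comparison. The share of calls that were higher there was 35.2%, 72.1% with library totals and 49.3% with upper-quartile factors. It was 56.3%, 38.2% and 40% with TNF against mock, 37.9%, 63.8% and 47.6% with Tub B against mock, 54.3%, 51.1% and 43.5% for both against Tub B, 52%, 62.6% and 47% for both against mock and 24.5%, 43.4% and 30.7% in the interaction. Per coding length OAS1 made up 22.3% of the family with TNF, in place of 23.7%. With the 300-base promoter window, 3.57% of promoters held the pair with 2 bases between and 3.12% that with 1. With 9 and 14 counts for OAS1 in the Tub B libraries, depth limits the precision of its changes there.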
